A study of Homo sapiens with 18 samples.

Results

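The 10 genes described here belong to the pathway by which cells sense oxygen. They are HIF1A and EPAS1, which encode the alpha subunits HIF-1alpha and HIF-2alpha, EGLN1 and EGLN3, which encode prolyl hydroxylases, and 6 genes that the factors are known to induce, BNIP3, BNIP3L, NDRG1, ADM, P4HA1 and VEGFA. They were chosen by name. For each gene the brightest probe set annotated with that symbol alone was used, and all 10 reached a level of 4 on the log2 scale in at least 1 group, as did 10717 genes in all. RNA came from HK-2 cells, a line of immortalized epithelial cells of the human kidney's proximal tubule, kept in the labelled medium with epidermal growth factor, hydrocortisone, insulin, transferrin and selenite. The cells had been exposed to CsA, the usual abbreviation of cyclosporin A, or to the control vehicle for 12, 24 or 48 h. Each of the 6 groups held 3 arrays, labelled as biological replicates 1 to 3 of one laboratory, so that there were 18 arrays in all. No genotype change or oxygen treatment is labelled for any group, the dose of CsA was not given in the sources used here, and all values come from 1 cell line.

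When oxygen is present, the EGLN enzymes hydroxylate the alpha subunits, and the hydroxylated proteins are bound by VHL and degraded. When oxygen falls, the subunits accumulate, pair with ARNT and bind short DNA cores in the control regions of their targets, so that control of HIF-1alpha lies largely at the protein, which these arrays do not measure. In the renal proximal tubule HIF-1alpha is the chief alpha subunit of the epithelium, and the pathway is studied there as a response to poor perfusion. VEGFA is also a target of ATF4, the transcription factor of the integrated stress response, which is why genes of that pathway were read beside it.

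All values are the deposited GCRMA values on the log2 scale, where a difference of 1 is a doubling of signal. Each probe has its own response, so levels are compared between arrays and never between genes. Values under 4 lie near the background, where GCRMA compresses differences. Differences carry the standard error (SE) of a limma model over all 18 arrays, means carry the SD over 3 arrays, and a gene is said to rise or fall only where its p-value, adjusted over all 10717 genes, is under 0.05. Since nothing beyond the word biological says how the cultures were made, p-values measure the spread between these arrays.

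The cores ACGTG and GCGTG, which HIF binds, were searched on both strands in the 250 bases before the transcription start, since HIF acts on its targets through them. RefSeq promoter sequences of build GRCh38.p14 were at hand for 7 of the 10 genes, and 6 of these 7 held at least 1 core at any start. The 7 genes had 8 promoter entries, and the second start of HIF1A held no core. Of 35116 promoters of the same length, counted by start and not by gene, 43.2% held a core. By core, 18.5% of promoters held ACGTG and 32.2% held GCGTG. The palindrome CACGTG, which counts as ACGTG on both strands, was present in 6.34%. BNIP3 held 6 matches, of which 2 came from 1 such palindrome, while EGLN1, EPAS1, P4HA1, ADM and 1 of the starts of HIF1A held 1 each. EGLN3 held none in this window. The composite TGATGNAA, a form of the site that ATF4 binds with C/EBP proteins, was found in none of the 7, against 3.14% of all promoters. VEGFA, NDRG1 and BNIP3L were not among the 7 and were not searched. Of the 4 printed below, EPAS1 is the subunit gene that rose in these cells, P4HA1 a target with an ACGTG core, BNIP3 the gene with the most matches and EGLN3 the one with none. The lines run 5′ to 3′ on the gene's strand and end at the base before the start, and capitals mark the cores on either strand.
EPAS1 (chr2:46297157-46297406, + strand): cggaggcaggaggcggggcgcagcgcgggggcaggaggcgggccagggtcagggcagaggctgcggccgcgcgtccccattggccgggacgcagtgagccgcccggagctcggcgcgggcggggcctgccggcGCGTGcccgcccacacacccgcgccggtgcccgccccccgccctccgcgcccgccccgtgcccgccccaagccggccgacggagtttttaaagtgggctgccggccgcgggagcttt
P4HA1 (chr10:73096867-73097116, - strand): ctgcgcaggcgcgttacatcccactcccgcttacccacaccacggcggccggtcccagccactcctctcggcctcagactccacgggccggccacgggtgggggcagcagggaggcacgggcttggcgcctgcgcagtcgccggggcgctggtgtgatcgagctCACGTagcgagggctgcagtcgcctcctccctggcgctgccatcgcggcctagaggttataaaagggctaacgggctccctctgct
BNIP3 (chr10:131981924-131982173, - strand): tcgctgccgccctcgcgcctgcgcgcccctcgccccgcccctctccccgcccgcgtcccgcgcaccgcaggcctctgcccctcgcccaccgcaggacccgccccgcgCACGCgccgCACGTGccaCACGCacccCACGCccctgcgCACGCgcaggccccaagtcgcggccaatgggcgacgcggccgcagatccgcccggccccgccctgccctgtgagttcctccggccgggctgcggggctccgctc
EGLN3 (chr14:33951075-33951324, - strand): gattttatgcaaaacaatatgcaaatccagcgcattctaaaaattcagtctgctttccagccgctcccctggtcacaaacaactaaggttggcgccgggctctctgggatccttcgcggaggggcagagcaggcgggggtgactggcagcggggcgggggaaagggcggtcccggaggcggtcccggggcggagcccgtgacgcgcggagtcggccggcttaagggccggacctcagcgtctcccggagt

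In EPAS1 the core GCGTG lies 117 to 113 bases before the start, on the gene's own strand. In P4HA1 the core ACGTG lies 86 to 82 bases before the start, on the opposite strand. The 6 matches of BNIP3 all lie between 143 and 100 bases before the start. A match is a stretch of letters, and no binding was measured.

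Annotated cell identity was checked first. Of 12 genes typical of differentiated proximal tubule, 1 (DPP4) reached 4 in any group, and LRP2, CUBN and AQP1 were near background. All 6 epithelial markers reached 4, as did 4 of 6 fibroblast markers (COL1A1, COL3A1, DCN and LUM), 0 of 5 endothelial and 0 of 5 leukocyte markers. The summed fibroblast log2 values ran from 32.1 to 34.0 at 12 h, from 32.2 to 33.5 at 24 h, from 28.5 to 32.6 in controls at 48 h and from 26.4 to 29.6 with CsA at 48 h. Of these 4 genes LUM differed most from 24 to 48 h, by -1.16 in controls and -2.52 with CsA. The others differed by -0.47 to -0.34 in controls and by -0.96 to -0.42 with CsA. The summed epithelial log2 values ran from 56.4 to 65.7 within the controls at 12 h and from 61.3 to 67.4 with CsA at 48 h. The part of these markers in the results at 48 h was not tested. The 3-prime minus 5-prime signal of ACTB, a sign of RNA quality, lay between 0.67 and 1.03 on the 12 h and 24 h arrays and between 0.71 and 1.21 at 48 h. Arrays with the same replicate number resembled each other across groups, and the number explained 71.5% of the squared deviations from the group means.

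Across the arrays HIF1A varied little while EPAS1 climbed. HIF1A lay between 14.22 and 14.55 on all 18 arrays, a range of 0.33, the narrowest of the 10 genes. It had no further probe set to serve as a check. EPAS1 rose from 24 to 48 h in both treatments, 2.01-fold in controls and 1.59-fold with CsA. No difference between CsA and control passed the threshold for either gene at any time.

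**Figure D1:**
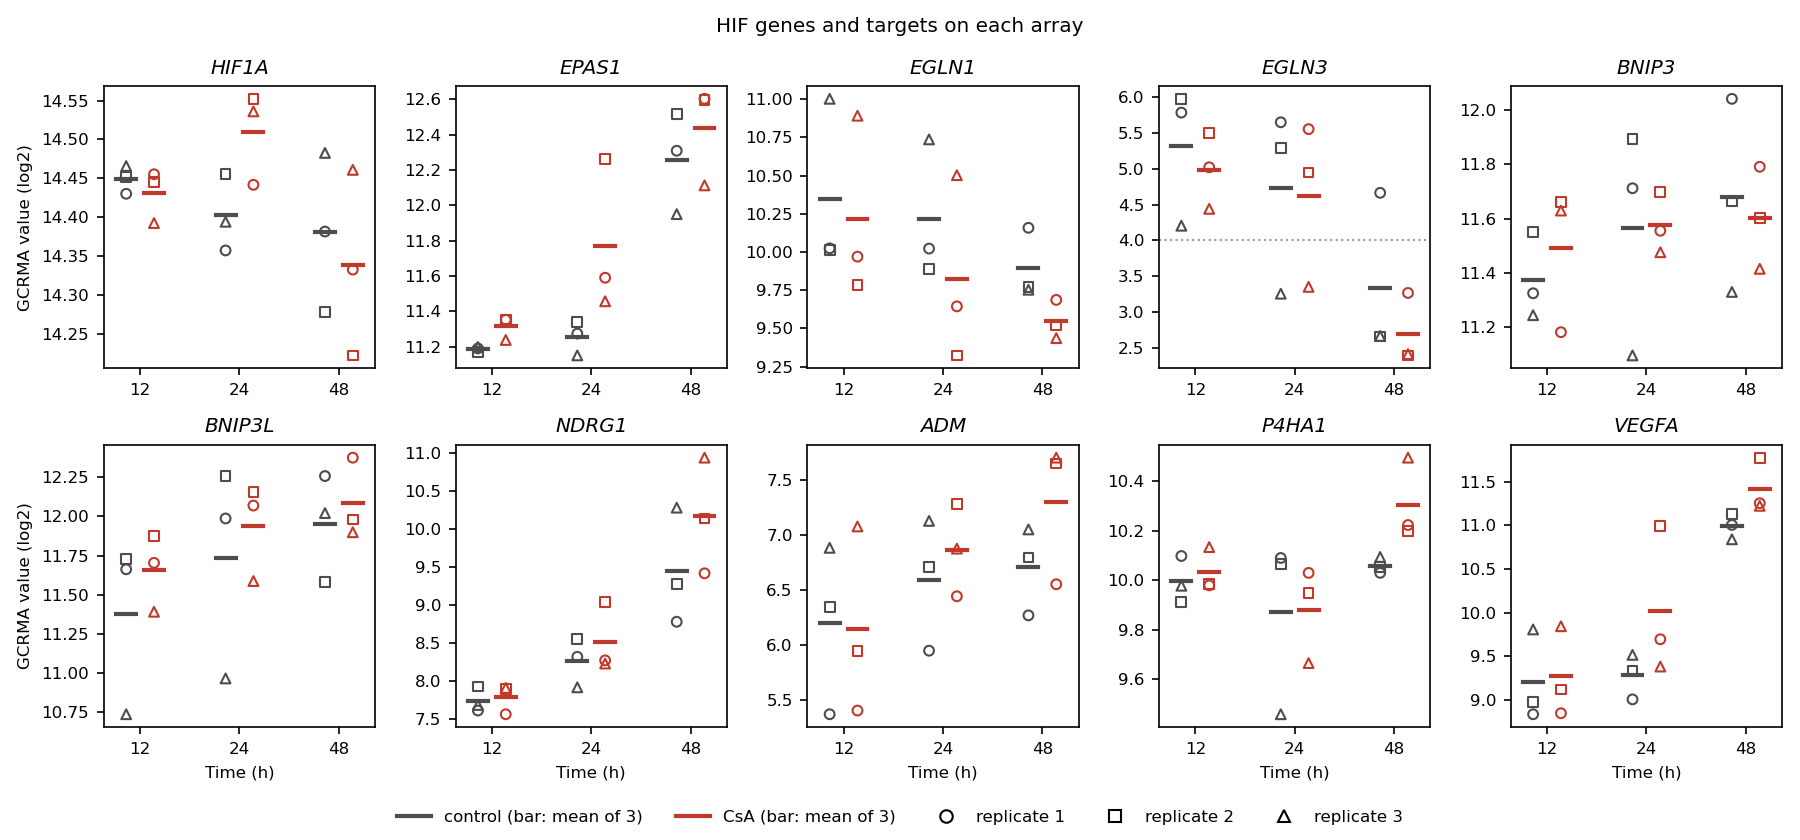
Each panel plots the GCRMA value (log2) of 1 gene against time (12, 24 and 48 h) for the 3 control arrays (grey) and the 3 CsA arrays (red) of each time. Symbols give the replicate number, bars the group means, and the dotted line in the EGLN3 panel the level of 4; the vertical axes differ, and EPAS1, NDRG1 and VEGFA are higher at 48 h in both treatments while HIF1A spans 0.33.

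HIF1A encodes the oxygen-regulated subunit that most cell types share. The control arrays of replicates 1 to 3 read 14.43, 14.45 and 14.47 at 12 h, 14.36, 14.46 and 14.39 at 24 h, and 14.38, 14.28 and 14.48 at 48 h. The CsA arrays read 14.46, 14.44 and 14.39 at 12 h, 14.44, 14.55 and 14.54 at 24 h, and 14.33, 14.22 and 14.46 at 48 h. The groups overlapped at every time. The difference between CsA and control was -0.02 ± 0.09 at 12 h, 0.11 ± 0.09 at 24 h and -0.04 ± 0.09 at 48 h. Rescaling the arrays turns the sign at 12 h, where a centring on array medians gave 0.014. From 24 to 48 h with CsA, HIF1A differed by -0.17 ± 0.09, with an adjusted p of 0.182 in limma. All 3 pairs were lower at 48 h there, as they were for 31.6% of all genes.

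EPAS1 encodes the subunit best known from endothelium and from the kidney cells that make erythropoietin. Its control arrays read 11.19, 11.17 and 11.20 at 12 h, 11.27, 11.34 and 11.15 at 24 h, and 12.31, 12.52 and 11.95 at 48 h. Its CsA arrays read 11.35, 11.35 and 11.24 at 12 h, 11.59, 12.26 and 11.46 at 24 h, and 12.60, 12.60 and 12.11 at 48 h. All 3 CsA arrays lay above all 3 control arrays at 12 h and at 24 h, and the groups overlapped at 48 h. EPAS1 was the only one of the 10 genes without overlap at 12 h and at 24 h, where 6.35% and 9.69% of all genes had groups apart in either direction. The same replicate gave a higher value with CsA in all 3 pairs at 12 h, 24 h and 48 h. So did 18.9%, 22% and 25.7% of all genes at these times. The share of genes higher at all 3 times together was not counted.

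The EPAS1 difference between CsA and control was 0.13 ± 0.20 at 12 h, 0.52 ± 0.20 at 24 h and 0.18 ± 0.20 at 48 h. At 24 h its unadjusted p was 0.0202 and its adjusted p 0.999, with 0 of 10717 genes called. The model with the replicate number as a block gave an adjusted p of 0.294. Replicate 2 contributed most of the 24 h value: its pair differed by 0.92, the other pairs by 0.32 and 0.31, and without the CsA array of replicate 2 the difference was 0.27. A fainter probe set of EPAS1 gave 0.51 ± 0.25 at the same time.

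From 24 to 48 h EPAS1 rose by 1.00 ± 0.20 in controls, with an adjusted p of 0.00538. It rose by 0.67 ± 0.20 with CsA, with an adjusted p of 0.0232. In controls the 48 h arrays all lay above the 24 h arrays, and with CsA the 24 h array of replicate 2, at 12.26, lay above the 48 h array of replicate 3, at 12.11. The call with CsA was lost, at adjusted p-values of 0.0718 to 0.112, when any 1 of 4 arrays was left out: CsA at 24 h replicate 1 or 3, or CsA at 48 h replicate 1 or 2. Under the replicate block the adjusted p with CsA was 0.00296, where 41.8% of all genes changed. That block call held in 18 of 18 fits that each left out 1 array, a check added after the data were seen. The fainter EPAS1 probe set differed by 0.79 and 0.65, short of the threshold, with adjusted p-values of 0.0507 in controls and 0.0740 with CsA, and a fit of the 9 CsA arrays alone gave 0.0766. With the replicate block the fainter probe set had 0.0342 in controls, past the threshold, and 0.0601 with CsA. The rises in the 2 treatments were not shown to differ, since their difference was -0.34 ± 0.28 with an adjusted p of 0.977.

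EGLN1, a hydroxylase gene, was lower on the CsA array of every pair, as were 20.6% to 26.2% of all genes at single times. EGLN3 was under 4, near the background, on 5 of 6 arrays at 48 h. EGLN1 encodes PHD2, the main oxygen sensor of the pathway, and EGLN3 encodes PHD3, itself a HIF target in many cells. Neither difference between CsA and control passed the threshold at any time.

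EGLN1 in controls read 10.02, 10.01 and 11.00 at 12 h, 10.02, 9.89 and 10.74 at 24 h, and 10.16, 9.77 and 9.75 at 48 h. With CsA it read 9.97, 9.79 and 10.89 at 12 h, 9.64, 9.32 and 10.50 at 24 h, and 9.69, 9.52 and 9.44 at 48 h. Replicate 3 stood 0.78 to 1.02 above the mean of the others at 12 h and 24 h in both treatments and 0.17 to 0.21 below it at 48 h. For comparison, the median absolute gap of replicate 3 over all genes was between 0.27 and 0.31 in the 6 groups.

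The EGLN1 difference between CsA and control was -0.13 ± 0.36 at 12 h, -0.39 ± 0.36 at 24 h and -0.35 ± 0.36 at 48 h. All 3 pairs were lower with CsA at 12 h, 24 h and 48 h, as they were for 20.6%, 23.3% and 26.2% of all genes. The share of genes lower at all 3 times together was not counted. At 48 h the 3 CsA arrays lay below the 3 control arrays, as they did for 6.77% of all genes, and the adjusted p was 0.726 or, with the replicate block, 0.419. Both other EGLN1 probe sets above 4 were also lower at each time, with differences of -0.43 to -0.11.

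EGLN3 in controls read 5.79, 5.98 and 4.20 at 12 h, 5.65, 5.29 and 3.25 at 24 h, and 4.66, 2.65 and 2.66 at 48 h. With CsA it read 5.02, 5.50 and 4.44 at 12 h, 5.55, 4.95 and 3.35 at 24 h, and 3.26, 2.39 and 2.41 at 48 h. EGLN3 passed the level filter only through its 12 h and 24 h groups, with means of 4.62 to 5.32. Its 48 h means were 3.33 in controls and 2.69 with CsA. Calls of a fall to 48 h are thus not independent of that filter. At 48 h 5 of the 6 arrays were under 4, so the size of the decline is not resolved. Replicate 3 was the lowest in each of the 4 groups at 12 h and 24 h and next to the lowest at 48 h.

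From 24 to 48 h EGLN3 differed by -1.40 ± 0.74 in controls and -1.93 ± 0.74 with CsA, with adjusted p-values of 0.232 and 0.0721. With the replicate block it fell in both, with adjusted p-values of 0.0252 and 0.00325. The control call under the block was lost without 1 of 3 arrays and reached an adjusted p of 0.120 without the 48 h array of replicate 2, whereas the CsA call held in 18 of 18 such fits. All these fits share the filter that kept EGLN3 through its earlier groups, so holding in them adds no support. A second EGLN3 probe set had group means that peaked at 4.42 and were 3.60 and 3.54 at 48 h. It differed by -0.82 ± 0.26 in controls and -0.66 ± 0.26 with CsA. Its adjusted p-values were 0.0482 and 0.0803, or 0.0130 and 0.0296 with the block.

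Of 15 further genes of the degradation and coactivator machinery 11 were tested, and 2 of these changed in controls and 3 with CsA between 24 and 48 h, near the 14.5% and 25.2% of all genes that changed. ARNT2, HIF3A, EGLN2 and VHL stayed under 4. From 24 to 48 h RBX1, a subunit of the VHL ubiquitin ligase, fell by 0.88 in controls and fell by 0.95 with CsA. ELOB, the elongin B subunit of the same ligase, fell by 0.46 in controls and fell by 0.30 with CsA. SIAH2, a ligase that degrades EGLN proteins, rose by 0.66 ± 0.19 with CsA, while in controls it differed by 0.31 ± 0.19. CsA against control gave 0 calls among the 11 genes, with a median of -0.01 at 48 h.

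Between 24 and 48 h VEGFA rose 3.27-fold in controls and 2.63-fold with CsA, and NDRG1 rose 3.14-fold with CsA, while in controls NDRG1 did not pass the threshold without the replicate block. BNIP3 and BNIP3L, the mitophagy receptors, passed no test for time or treatment. ADM and P4HA1 were higher with CsA at 48 h in all 3 pairs, as were 25.7% of all genes, without passing the threshold.

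VEGFA encodes the chief growth factor of blood vessels, which tubular epithelium secretes towards the neighbouring capillaries. Its control arrays read 8.84, 8.98 and 9.81 at 12 h, 9.01, 9.33 and 9.52 at 24 h, and 11.01, 11.13 and 10.84 at 48 h. Its CsA arrays read 8.85, 9.12 and 9.84 at 12 h, 9.70, 10.99 and 9.38 at 24 h, and 11.25, 11.78 and 11.22 at 48 h. At 24 h the CsA array of replicate 2 already stood at the level of the 48 h controls while replicate 3 lay among the 24 h controls. At 48 h all 3 CsA arrays lay above the controls.

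The VEGFA difference between CsA and control was 0.06 ± 0.38 at 12 h, 0.74 ± 0.38 at 24 h and 0.43 ± 0.38 at 48 h, with adjusted p-values of 1.00, 0.999 and 0.662. The 24 h pairs differed by 0.69, 1.66 and -0.13, and without the CsA array of replicate 2 the mean difference was 0.25. At 48 h the pairs differed by 0.25, 0.64 and 0.38. The 3 other VEGFA probe sets gave 0.56 to 0.89 at 48 h, also short of the threshold. The absence of overlap at 48 h was shared by P4HA1 in the same direction, against 8.25% of all genes.

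From 24 to 48 h VEGFA rose by 1.71 ± 0.38 in controls, with an adjusted p of 0.0102, and by 1.39 ± 0.38 with CsA, with an adjusted p of 0.0148. The groups did not overlap in either treatment, and all 3 other probe sets passed the threshold in both. Leaving out the CsA array of replicate 1 or 3 at 24 h, or of replicate 2 at 48 h, put the CsA value at an adjusted p of 0.0630 to 0.0766, and the 9 CsA arrays alone gave 0.0561. Under the replicate block the adjusted p with CsA was 0.00608, where 41.8% of all genes changed. That block call held in 18 of 18 fits that each left out 1 array, a check added after the data were seen. The receptors FLT1 and KDR were under 4 in every group. NRP1, a coreceptor, fell by 1.00 in controls and fell by 1.05 with CsA.

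NDRG1 encodes a cytoplasmic protein induced by hypoxia, metals and differentiation. Its control arrays read 7.62, 7.93 and 7.69 at 12 h, 8.32, 8.55 and 7.92 at 24 h, and 8.78, 9.28 and 10.29 at 48 h. Its CsA arrays read 7.57, 7.90 and 7.91 at 12 h, 8.28, 9.05 and 8.23 at 24 h, and 9.42, 10.14 and 10.94 at 48 h. The 48 h arrays lay above the 24 h arrays in both treatments, with replicate 3 the lowest or nearly so at 24 h and the highest at 48 h.

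NDRG1 rose by 1.65 ± 0.39 from 24 to 48 h with CsA, with an adjusted p of 0.00681, and the call held when each array was left out in turn. Over the 3 times NDRG1 changed in controls without the block, with an adjusted p of 0.0215 for the F test. Of all genes, 14.2% did so. From 24 to 48 h in controls it differed by 1.18 ± 0.39 with an adjusted p of 0.0551. With the replicate block it rose there, with an adjusted p of 0.0173. That block call held in 16 of 18 fits that each left out 1 array, with an adjusted p of 0.098 without the control array of replicate 3 at 24 h. Replicate 3 set much of the size: the control pairs differed by 0.46, 0.73 and 2.36, and without replicate 3 the difference was 0.59 in controls and 1.12 with CsA. At 48 h NDRG1 was higher with CsA in all 3 pairs, by 0.64, 0.86 and 0.66, yet its difference of 0.72 ± 0.39 had an adjusted p of 0.397 or, with the block, 0.184. Its relative NDRG4 moved the other way with time with a change of -1.44 in controls and of -1.81 with CsA, both past the threshold. The 48 h means of NDRG4 were 5.05 in controls and 4.65 with CsA. NDRG3 differed by 0.11 in controls and 0.01 with CsA, short of the threshold, and NDRG2 stayed under 4.

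ADM encodes adrenomedullin, a peptide that widens blood vessels. Its control arrays read 5.37, 6.34 and 6.88 at 12 h, 5.95, 6.70 and 7.12 at 24 h, and 6.27, 6.79 and 7.05 at 48 h. Its CsA arrays read 5.40, 5.94 and 7.07 at 12 h, 6.44, 7.28 and 6.87 at 24 h, and 6.55, 7.65 and 7.70 at 48 h. Replicate 1 was the lowest in every group, and the spread between replicates was larger than that between treatments.

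The ADM difference between CsA and control was 0.60 ± 0.48 at 48 h, with pairs of 0.28, 0.85 and 0.65. Its adjusted p was 0.625, or 0.101 with the replicate block, where the SE was 0.22. Over the 3 times the CsA arrays changed under the block, with an adjusted p of 0.00261 for the F test against 0.196 without it, where 47.3% of all genes changed with the block and 28.3% without. None of the 5 listed receptors and receptor partners of adrenomedullin reached 4.

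P4HA1 encodes the catalytic subunit of collagen prolyl 4-hydroxylase, an enzyme of the endoplasmic reticulum unrelated to the sensing of HIF. Its control arrays read 10.10, 9.91 and 9.98 at 12 h, 10.09, 10.07 and 9.46 at 24 h, and 10.03, 10.05 and 10.09 at 48 h. Its CsA arrays read 9.98, 9.98 and 10.13 at 12 h, 10.03, 9.95 and 9.66 at 24 h, and 10.22, 10.20 and 10.50 at 48 h. At 48 h the 3 CsA arrays lay above the controls by 0.25 ± 0.16 on average, with an adjusted p of 0.498.

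With CsA, P4HA1 differed by 0.43 ± 0.16 between 24 and 48 h, with an adjusted p of 0.0609 and, under the block, 0.0426. That block call held in 8 of 18 fits that each left out 1 array. Of its 10 tested partners in collagen folding and modification, PPIB, the cyclophilin of the endoplasmic reticulum that also binds cyclosporin A, rose by 1.02 ± 0.27 in controls and by 1.44 ± 0.27 with CsA. Under the block P4HB, PPIB and P4HA2 were called higher and P3H2 lower with CsA at 48 h. The block called 4.8% of all genes higher there and 5.96% lower. Without the block, none of the 10 was called there.

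BNIP3 and BNIP3L encode receptors that tether mitochondria to the autophagy machinery. BNIP3 ran from 11.10 to 12.04 over the 18 arrays and BNIP3L from 10.74 to 12.37, and CsA and control arrays overlapped for both at every time. The BNIP3 difference was 0.12 ± 0.22 at 12 h, 0.01 ± 0.22 at 24 h and -0.08 ± 0.22 at 48 h, and its sign at 24 h depended on the probe set, the other giving -0.09. The BNIP3L difference was 0.28 ± 0.33, 0.20 ± 0.33 and 0.13 ± 0.33. BNIP3L was lowest on the control arrays of replicate 3 at 12 h and 24 h, at 10.74 and 10.97, where the gap to the other replicates was 0.96 and 1.16. Of 9 tested autophagy partners, SQSTM1 and MAP1LC3B rose from 24 to 48 h in both treatments, MAP1LC3B by 1.38 in controls and 1.53 with CsA, and GABARAPL1 and GABARAPL2 also rose with CsA. That made 2 of the 9 called in controls and 4 with CsA, where 14.5% and 25.2% of all genes changed.

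**Figure D2:**
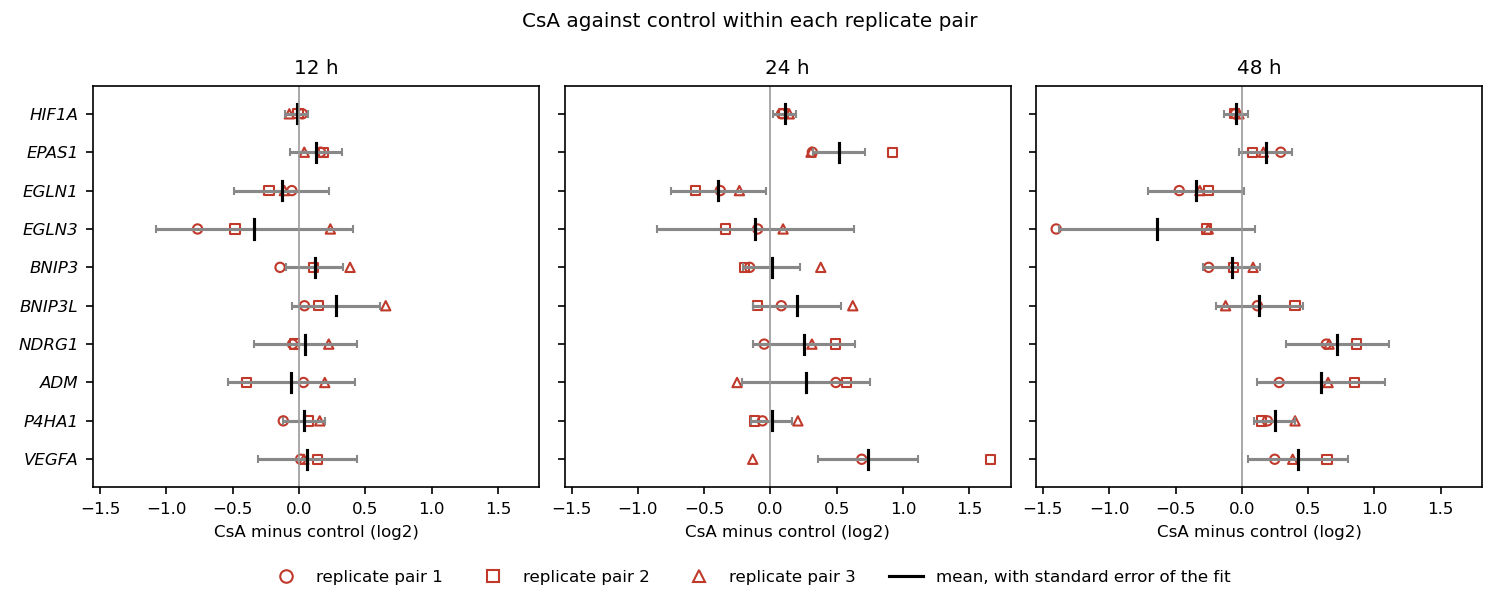
Points give the CsA minus control difference (log2, horizontal axis) of each replicate pair for the 10 genes at 12, 24 and 48 h; black ticks give the mean of the 3 pairs and grey bars the SE of the model. EPAS1 lies above 0 and EGLN1 below 0 in all 3 pairs of each time. In all 3 pairs of a single time, 18.9% to 25.7% of all genes were higher and 20.6% to 26.2% lower. VEGFA at 24 h spans -0.13 to 1.66, and no mean passed the threshold.

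Counted together, 0 of the 10 genes were called for CsA against control at 12 h, at 24 h or at 48 h. The background was 0% of all genes at 12 h and at 24 h and 0.439% (47 genes) at 48 h, as tested in limma. An unadjusted p under 0.05 was found for 0, 1 and 0 of the 10, against 0.914%, 3.79% and 16% of all genes. The replicate block raised the 24 h background to 0.00933% (1 gene) and the 48 h background to 10.8% (1153 genes), with 0 of the 10 called. Averaged over the times, 0 of the 10 were called against 0.084% of all genes, and 0 changed their CsA difference with time against 0.0373%. The median difference of the 10 genes was 0.15 at 24 h and 0.16 at 48 h, with 8 and 6 of them positive against 48% and 50.2% of all genes, whose medians were -0.01 and 0.00.

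Time, by contrast, moved several of them. From 24 to 48 h in controls EPAS1 and VEGFA rose, 2 of the 10, while 14.5% of all genes changed. With CsA EPAS1, VEGFA and NDRG1 rose, 3 of the 10, while 25.2% changed. The block gave 4 and 5 of the 10 against 32.6% and 41.8%, adding NDRG1 and EGLN3 in controls and EGLN3 and P4HA1 with CsA. EGLN3 had passed the level filter only through its 12 h and 24 h groups. Shares of this size in 10 genes are near the background. In controls EPAS1, NDRG1 and VEGFA had all 48 h arrays above the 24 h arrays, against 14.9% of all genes. With CsA the same held for NDRG1, P4HA1 and VEGFA, against 19.3%, and EGLN3 had all of them below, against 19.7%. From 12 to 24 h 0 of the 10 were called in controls or with CsA, and 0% of all genes were called in either.

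**Figure D3:**
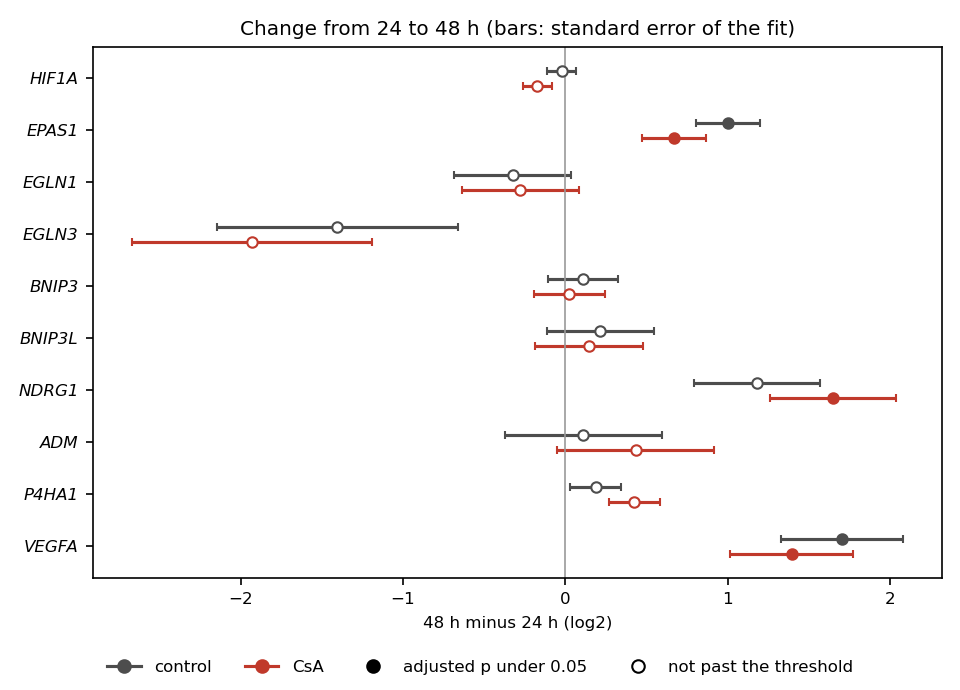
Points give the change from 24 to 48 h (log2, horizontal axis) of each of the 10 genes on control arrays (grey) and CsA arrays (red), with the SE of the model as bars; filled points have an adjusted p under 0.05. EPAS1 and VEGFA are filled in both, NDRG1 with CsA, and EGLN3 lies farthest to the left with the widest bars.

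Of 60 further HIF targets listed, 46 were tested, and from 24 to 48 h in controls 5 rose and 7 fell, where 14.5% of all genes changed, with a median of 0.06. The 6 genes with the smallest p-values were PGAM1, LDHA and TPI1, enzymes of glycolysis, which changed by -0.95, -0.61 and -0.64, and STC2, TMEM45A and ANKRD37, which rose by 2.94, 1.67 and 1.02. With CsA 7 rose and 10 fell, where 25.2% of all genes changed, with a median of -0.05, among them TMEM45A with a rise of 2.13, and PGAM1, LDHA and TPI1, which changed by -1.16, -0.92 and -0.89. The block gave 10 up and 11 down in controls and 12 up and 14 down with CsA, where it called 32.6% and 41.8% of all genes.

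The 16 tested genes of glycolysis and glucose transport, a group formed after the values were seen and given as a description, held all 7 of the falls in controls and 9 of the 10 with CsA. Of all genes, 7.16% fell in controls and 12.3% with CsA. HK2, a hexokinase, rose in both. The medians of the 16 genes were -0.46 and -0.56, against 0.16 and 0.25 for the other 30 targets. Since the split was made after the values were seen, it gives no test of that contrast. CsA against control called 0 of the 46 at any time. The largest differences were STC2 at 24 h, 2.18 ± 0.55, and PFKFB3, which makes a strong activator of glycolysis, at 48 h, -1.16 ± 0.28 with an adjusted p of 0.0688. The block called PFKFB3, PGAM1, FAM162A, LDHA and TPI1 lower and P4HA2 higher with CsA at 48 h. That made 5 of the 46 lower and 1 higher, against 5.96% and 4.8% of all genes, or 10.8% either way.

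All 20 genes of the list of ATF4 and its targets were tested, 3 of which (DDIT4, STC2 and VLDLR) are also on the HIF target list. The list was chosen with earlier results of these data known, so its counts are descriptions. CHAC1 passed the level filter only through CsA at 24 h and both 48 h groups, with means of 5.17 to 6.42. Its other group means were 3.61 to 3.63. Its sign at 24 h and its change to 48 h in controls are thus not independent of that filter. From 24 to 48 h in controls 15 of 20 rose and none fell, with a median of 1.89, where 7.32% of all genes rose. Among the 15 were SLC7A11, a cystine transporter, with 5.42, and DDIT3, the stress factor CHOP, with 5.17. With CsA 12 of 20 rose, with a median of 1.38, where 12.9% of all genes rose. At 24 h all 20 differences between CsA and control were positive, with a median of 0.74, where 48% of all genes were positive. Of the 20, 0 were called, against 0% of all genes. SLC7A11, at 3.67 ± 0.57, was called under the block, where 0.00933% of all genes were called. The list's median by pair at 24 h was 0.43, 1.33 and 0.71, and the VEGFA pairs were 0.69, 1.66 and -0.13, so replicate 2 was the highest in both and replicate 3 differed. The EPAS1 pairs were 0.32, 0.92 and 0.31. The median of the 46 HIF targets in the same pairs was -0.03, -0.01 and 0.10. The part of either pathway in the VEGFA and EPAS1 differences was not tested.

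**Figure D4:**
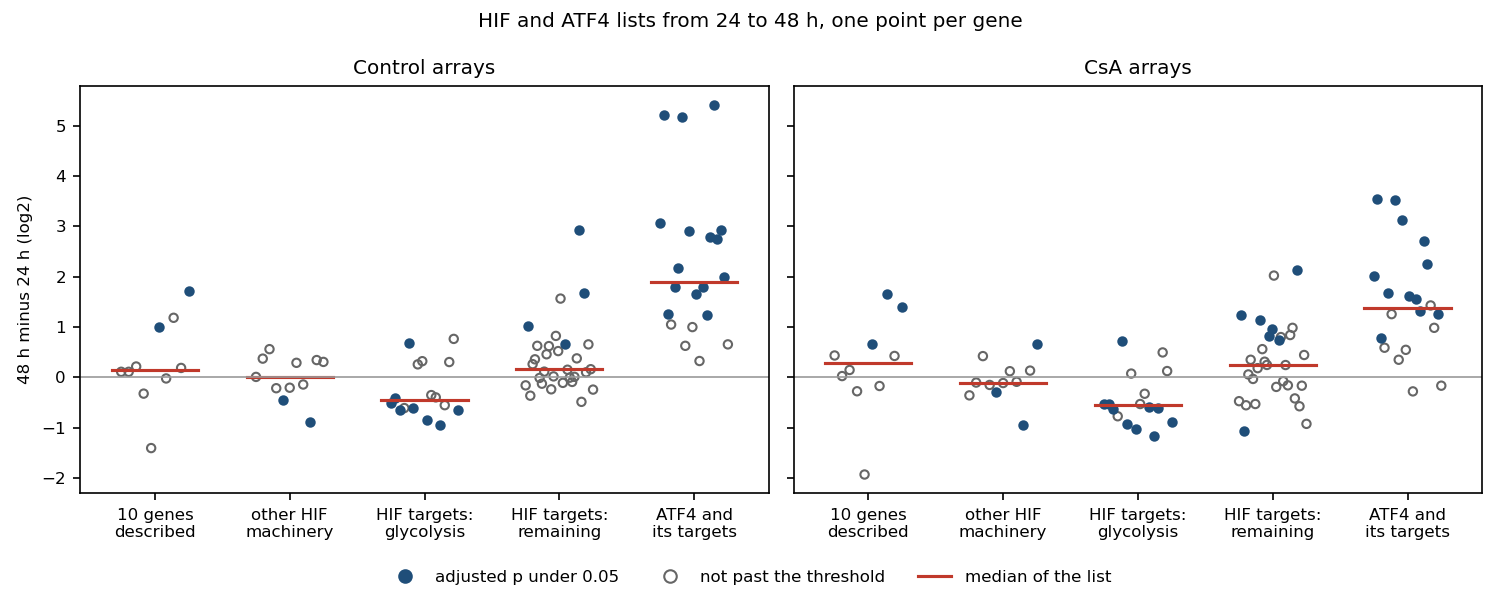
Each point is 1 gene and its height the change from 24 to 48 h (log2) on control arrays (left) or CsA arrays (right), by gene list; filled points have an adjusted p under 0.05 and red lines are list medians. The ATF4 list has medians of 1.89 and 1.38, the glycolytic HIF targets -0.46 and -0.56, and the 10 genes described lie between -1.93 and 1.71.

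Likeness of pattern was read as the Pearson correlation over the 18 arrays after the mean of each replicate number was subtracted. The arrays share the groups and the replicate cultures, so the values are descriptions. Among the 10 genes EPAS1 and VEGFA were the most alike, with r = 0.97, followed by EPAS1 and NDRG1 and by NDRG1 and VEGFA with r = 0.84 each. EGLN3 ran opposite to EPAS1 with r = -0.87. Over all genes outside the 10, ATF3 with r = 0.99 and CARS1 with r = 0.98 were nearest to EPAS1, and ATF3 is on the ATF4 list. RSL24D1 and IFRD1 were nearest to VEGFA, with r = 0.98 each, and PTP4A2 and SAT2 to NDRG1, with r = 0.99 each. The nearest genes of BNIP3 were GPR160 with r = 0.83 and SH3PXD2A with r = 0.78, the lowest such values of the 10.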

How the data were processed

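RNA of 18 HK-2 cultures was measured on Affymetrix arrays, with groups and replicate numbers taken from the labels. The authors' deposited values were made with GCRMA, per the submitters' processing notes, which name no version, and were read as log2 values from their range of 0.84 to 15.98. GCRMA corrects background, normalizes between arrays and summarizes probes. The set of arrays normalized jointly was not given in the sources used here. The median value of an array was 2.86 to 2.92, and the number of arrays limits the precision.

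Of 54675 probe sets, 41091 had 1 gene symbol in the platform annotation, 1801 several, and 11721 were unnamed here, beside 62 array controls. Genes were kept where the highest group mean of a probe set reached 4, and the brightest such probe set stood for the gene. The 10 genes had 22 probe sets, of which 9 further ones above 4 served as a check.

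Differences were fitted with limma 3.58.1 (lmFit, eBayes) in R 4.3.3, with 1 mean per group over all 18 arrays and Benjamini-Hochberg adjustment over 10717 genes at 0.05. The scripts were tested on simulated data. Tables and figures used Python 3.11.15, pandas 2.3.3 and matplotlib 3.10.9. Same-numbered arrays deviated together in every pair of groups, with correlations of at least 0.28, and 18 of 18 arrays were closest to one with their own number. The pairing thus comes from the data, since no label states a shared culture. It was fitted as a block. The block, the level filter, other scalings, the mean over probe sets, other probe sets, fits on fewer arrays and leaving out each array or replicate 3 were the alternatives. Leaving out arrays within the blocked fit was added after seeing the data.

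Named were all 10 genes, up to 6 called genes per list and contrast with the smallest p, otherwise the 2 with the largest difference, and the 2 most alike genes. The genes and lists were chosen with earlier results of these data known. Genes named beyond that rule (HK2, GABARAPL1 and GABARAPL2 among others) were chosen after their values were seen. Promoter sequences are RefSeq's for build GRCh38.p14.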

Additional observations from a re-analysis of the deposited data

Results flagged for a closer look

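HIF1A was marked because its difference between CsA and control ran one way at 24 h and the other way at 48 h in every replicate pair. The pairs read 0.08, 0.10 and 0.14 at 24 h and -0.05, -0.06 and -0.02 at 48 h. The difference thus changed by -0.15 from 24 to 48 h, and the test of that change gave an adjusted p of 0.979 in limma, or 0.597 with the replicate block. HIF1A spanned 0.33 on the log2 scale over all 18 arrays.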

How the results depend on the processing

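The 10 genes kept 0 calls for CsA against control at 12 h, 24 h and 48 h and in the average under each alternative run. With the replicate block, the count of all genes called for CsA against control became 1 at 24 h, 1153 at 48 h and 494 in the average. For 24 to 48 h it became 3489 in controls and 4477 with CsA, and over the 3 times 3594 and 5070. The block called 4 of the 10 genes in controls and 5 with CsA between 24 and 48 h, and 5 with CsA over time. Apart from those it changed no call of the 10 genes but EGLN3 over time in controls. With no filter on low values, 28 genes were called at 48 h and 16 in the average, and a filter at 6 left 18 at 48 h. Centring on array medians gave 14 in the average, the mean over probe sets 82 at 48 h and 30 in the average, and the trend and robust settings 73 at 48 h. Fitting the 6 arrays of one time left 0 at 48 h. The 9 control arrays alone gave 963 between 24 and 48 h and 811 over time, and the 9 CsA arrays alone put EPAS1 and VEGFA at adjusted p-values of 0.0766 and 0.0561. The second EPAS1 probe set had adjusted p-values of 0.0507 in controls and 0.0740 with CsA between 24 and 48 h. The cause of these shifts was not tested, other than that the fits on fewer arrays have fewer samples.

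Small differences changed sign. HIF1A was 0.014 at 12 h after centring and 0.081 between 24 and 48 h in controls after quantile normalization, which put BNIP3 with CsA at -0.00127. BNIP3 at 24 h was -0.040 as a mean over probe sets and -0.090 on its second probe set, and BNIP3L in controls between 24 and 48 h was -0.026 on its second.

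Leaving out each array in turn, or replicate 3 throughout, gave 0 to 1 called genes for CsA against control at 12 h and at 24 h, 7 to 563 at 48 h, 0 to 164 in the average and 0 to 16 for its change over time. The 48 h count was 7 without the control of replicate 1 and 563 without the CsA array of replicate 1, both at 48 h. The count in the average was 0 without replicate 3 and 164 without the CsA array of replicate 1 at 48 h. The counts ran from 654 to 1829 in controls and from 1615 to 2912 with CsA between 24 and 48 h, and from 596 to 1925 and from 1853 to 3488 over time. Of the 10 genes, 2 to 3 and 1 to 5 were called between 24 and 48 h, and 1 to 3 and 3 to 5 over time. The count with CsA between 24 and 48 h was 1 without CsA at 24 h replicate 1 or CsA at 48 h replicate 2. The control count over time was 1 without the control of replicate 2 at 48 h. The differences that changed sign had these ranges. For CsA against control at 12 h the values ran from -0.52 to 0.31 for ADM, from -0.47 to 0.20 for EGLN1, from -0.042 to 0.16 for NDRG1, from -0.031 to 0.0089 for HIF1A. There the values ran from -0.024 to 0.087 for P4HA1, from -0.22 to 0.36 for VEGFA, from -0.039 to 0.46 for BNIP3L, from -0.016 to 0.27 for BNIP3. At 24 h the values ran from -0.20 to 0.12 for P4HA1, from -0.23 to 0.17 for BNIP3, from -0.011 to 0.40 for NDRG1, from -0.85 to 0.52 for EGLN3. There the values ran from -0.051 to 0.54 for ADM, from -0.18 to 0.46 for BNIP3L. At 48 h the values ran from -0.055 to 0.28 for BNIP3L, from -0.10 to 0.016 for HIF1A, from -0.25 to 0.11 for BNIP3, from -0.98 to 0.030 for EGLN3. Between 24 and 48 h in controls the values ran from -0.21 to 0.38 for ADM, from -0.076 to 0.030 for HIF1A, from -0.12 to 0.28 for BNIP3, from -0.20 to 0.48 for BNIP3L. There the values ran from -0.037 to 0.30 for P4HA1, from -0.49 to 0.0081 for EGLN1. Between 24 and 48 h with CsA the values ran from -0.53 to 0.12 for EGLN1, from -0.068 to 0.12 for BNIP3, from -0.028 to 0.26 for BNIP3L.

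The replicates number 3 per group, which limits what can be called, and values under 4 near background leave the EGLN3 decline unresolved.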
